A study of Mus musculus with 48 samples.

Results

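Transcripts of 9 genes of myelin and the oligodendrocyte lineage (Mbp, Mog, Mag, Mobp, Cnp, Olig1, Olig2, Pdgfra and Cspg4) were examined in RNA-seq libraries of the mouse hippocampal Cornus Ammonis, the hippocampus without the dentate gyrus. They were chosen by name for their place in this lineage, out of 24421 genes counted, and all 9 passed the filter on low counts in every fit. The 48 libraries came from 48 male mice of 8 weeks by their labels, and each library held 1 mouse. The study's text gives a range of ages from 8 weeks upward. Mice belonged to the Glu-CB1 line (nex-cre, CB1 f/f), in which Cre under regulatory elements of nex1 removes the cannabinoid receptor CB1 from glutamatergic neurons, or to the GABA-CB1 line (dlx5/6-cre, CB1 f/f), in which it is removed from GABAergic neurons. Oligodendrocytes are thus not the cells that either driver was chosen for. CB1-WT littermates served as controls, and mice were taken either from the home cage (basal) or after a brief exposure to the open field, a new arena. The study took open field tissue at a single time after that exposure. There were 5 Glu-CB1-WT and 7 Glu-CB1-KO mice at basal, 5 and 7 after the open field, 6 GABA-CB1-WT and 6 GABA-CB1-KO mice at basal, and 7 and 5 after the open field. These sizes follow the labels. The study's text gives those of the GABA-CB1 open field groups in the reverse order, whereas the Cnr1 levels went with the labels.

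Oligodendrocytes wrap axons in myelin, a compact membrane that speeds conduction and feeds the axon. They arise from precursor cells that persist in the adult brain, carry the receptor Pdgfra and the proteoglycan Cspg4 (NG2) on their surface, and lose both as they mature. Olig1 and Olig2 are transcription factors present throughout the lineage, and Mbp, Mog, Mag, Mobp and Cnp are switched on as the cell matures and myelinates.

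Promoter sequences are shown for 4 of the myelin genes because the levels of these genes rose and fell together from mouse to mouse. Each is the 250 bases before a RefSeq start of the gene, 5′ to 3′ on its strand, on GRCm38.p6, the assembly also named mm10. Capitals mark ACAAAG or its reverse complement CTTTGT, a core sequence recognised by SOX factors, a family to which the oligodendrocyte regulator Sox10 belongs. The motif was chosen after the sequences had been seen. For Mag, which has 3 entries, the start used lies 31 bases before the gene start of the deposited table.
Mobp, chr9:120149492-120149741, plus strand: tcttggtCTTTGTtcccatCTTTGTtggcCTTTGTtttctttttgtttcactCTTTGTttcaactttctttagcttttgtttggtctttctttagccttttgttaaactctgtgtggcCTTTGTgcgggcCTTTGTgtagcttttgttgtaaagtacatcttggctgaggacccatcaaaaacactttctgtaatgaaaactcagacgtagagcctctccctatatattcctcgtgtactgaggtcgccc
Mag, chr7:30914864-30915113, minus strand: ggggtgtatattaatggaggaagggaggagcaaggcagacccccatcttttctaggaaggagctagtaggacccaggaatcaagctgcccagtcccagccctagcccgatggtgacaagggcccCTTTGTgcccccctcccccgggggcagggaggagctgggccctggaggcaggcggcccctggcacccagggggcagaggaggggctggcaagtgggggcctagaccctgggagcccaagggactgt
Cnp, chr11:100574689-100574938, plus strand: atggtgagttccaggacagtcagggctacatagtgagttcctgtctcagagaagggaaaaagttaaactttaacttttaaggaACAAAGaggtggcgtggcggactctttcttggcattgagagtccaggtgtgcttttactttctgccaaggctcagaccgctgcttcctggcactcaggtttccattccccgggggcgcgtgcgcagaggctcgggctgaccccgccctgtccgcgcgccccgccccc
Mog, chr17:37023399-37023648, minus strand: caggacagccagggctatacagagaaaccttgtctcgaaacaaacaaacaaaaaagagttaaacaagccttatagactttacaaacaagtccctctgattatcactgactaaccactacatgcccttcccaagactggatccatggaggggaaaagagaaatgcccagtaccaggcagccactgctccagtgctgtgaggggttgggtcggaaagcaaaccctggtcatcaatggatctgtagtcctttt
The Mobp stretch held 6 matches, Mag and Cnp held 1 each, and Mog held 0. Of 32851 mouse promoter stretches of this length, 16.5% held at least 1 match on either strand, 1.74% at least 2, and the Mobp stretch was the only one with 6. Of the other genes with an entry in the promoter table, Olig2, Pdgfra and Cspg4 held 0 matches. Olig1 was not matched to an entry. The E-box CANNTG, the class of site bound by basic helix-loop-helix factors such as Olig1 and Olig2, stood once each in the stretches of Mag, Cnp and Pdgfra, against at least 1 in 66.2% of all stretches,, and none of these overlapped a match to ACAAAG. A match is a string of letters and was not tested for binding.

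The libraries held 25892654 to 34091080 counted reads (median 30975561), and the 9 genes together took 0.213 to 0.329% of them. Cnr1, the gene of CB1, fell in the KO group of every comparison with its WT littermates. Its log2 differences were -0.73 and -0.72 in Glu-CB1 mice (basal, then open field) and -1.23 and -1.45 in GABA-CB1 mice, and no KO library overlapped a WT library. All 28 further myelin and mature oligodendrocyte genes and all 16 further precursor and early lineage genes were detected, at means from 0.612 CPM upward (counts scaled to the size of the library and normalised by TMM). Mal and Trf of the former stood at means of 221 and 213 CPM and Bcas1 and Tnr of the latter at 137 and 101 CPM. Markers of Schwann cells, which make the myelin of peripheral nerve, were low, with means of 0.0591 CPM for Pmp2 and 0.603 CPM for Prx. Markers of cells that also express Pdgfra or Cspg4 were present, since the 6 fibroblast markers summed to 31.5 to 94.0 CPM and the 8 pericyte and smooth muscle markers to 132 to 195 CPM per library. Libraries that stood apart by choroid plexus markers were found in 3 groups, with sums of 4043 CPM in a GABA-CB1-KO open field library, 1505 CPM in a GABA-CB1-WT basal library and 630.1 CPM in a Glu-CB1-KO basal library, against 282 CPM at most elsewhere. Without these 3 libraries, 0 of the 9 genes passed the test in any of the comparisons, as with them.

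Per kb of exon, Mbp, which encodes the basic protein that holds the membrane layers of myelin together, was the most abundant of the 9 at 277 CPM per kb averaged over the 48 libraries (mm10 chr18:82475123-82585637, plus strand). Cnp, an enzyme of the myelin cytoplasm, followed at 91.9 CPM per kb (chr11:100574939-100581739, plus strand). Mag, an adhesion molecule of the membrane layer that faces the axon, stood at 50.9 (chr7:30899183-30914832, minus strand), Mobp, another basic protein of compact myelin, at 41.1 (chr9:120149742-120176091, plus strand), and Mog, a glycoprotein of the outermost layer, at 29.8 CPM per kb (chr17:37010740-37023398, minus strand). All 5 myelin genes thus lay above the factors and precursor markers on this scale. Olig1 stood at 25.3 (chr16:91269769-91271939, plus strand) and Olig2, its neighbour on the same chromosome, at 7.11 CPM per kb (chr16:91225550-91228677, plus strand). Pdgfra, the receptor for the growth factor that drives precursor proliferation, stood at 10.3 (chr5:75152291-75198204, plus strand) and Cspg4 at 2.79 CPM per kb (chr9:56865104-56899870, plus strand). The values are sums over all exons of a gene, so the many transcripts of Mbp were not separated.

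**Figure D1:**
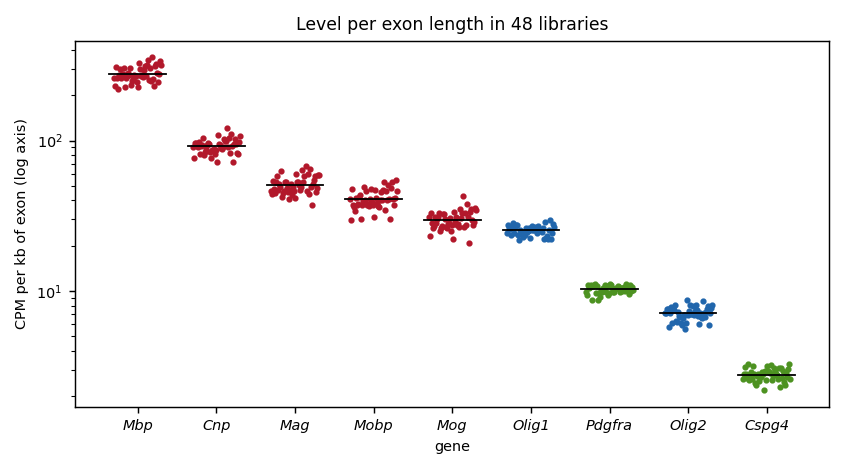
Level of each gene in CPM per kb of exon on a log axis, with 1 point per library (48 libraries) and a black line at the mean, red for myelin genes, blue for Olig1 and Olig2 and green for precursor markers. The means run from 277 for Mbp to 2.79 for Cspg4, and neighbouring genes overlap in part.

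Across the 8 groups of line, genotype and state these levels hardly moved. The ratio of the highest to the lowest group mean was 1.21 for Mag, 1.20 for Cnp, 1.18 for Mog, 1.16 for Mbp, 1.16 for Mobp, 1.14 for Cspg4, 1.12 for Olig2, 1.12 for Olig1 and 1.10 for Pdgfra. Between single libraries the span was wider, from 1.29 for Pdgfra to 2.07 for Mog. In bulk tissue, fewer cells of a type and less RNA per cell cannot be told apart.

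**Figure D2:**
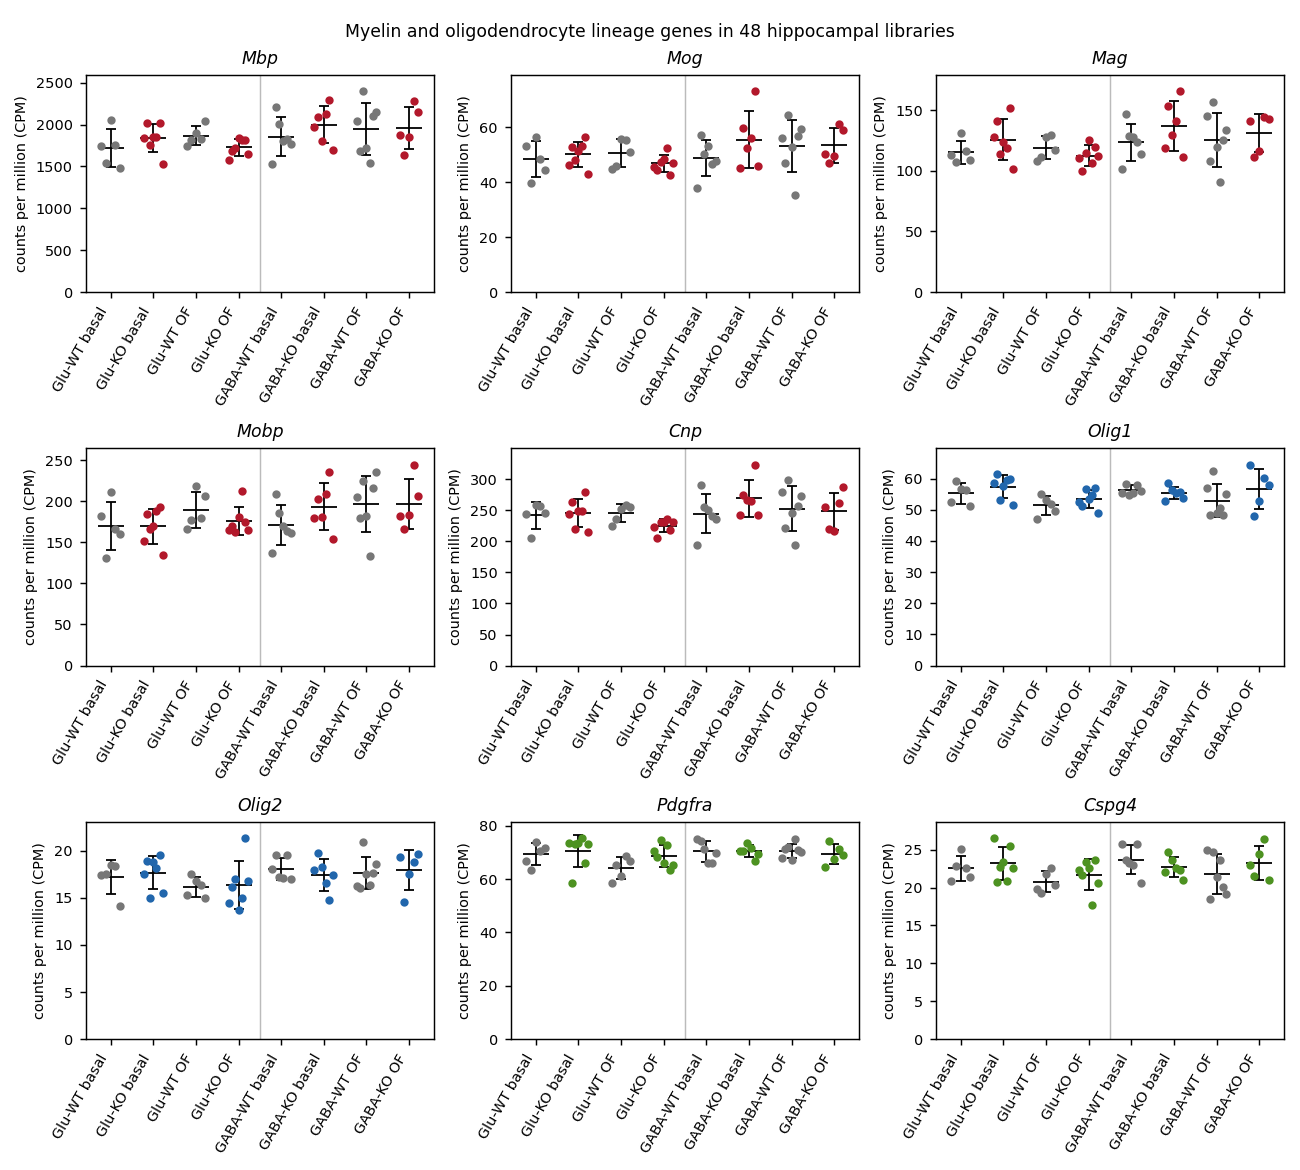
CPM of each gene (vertical axis, from 0) in the 8 groups (Glu and GABA for the Glu-CB1 and GABA-CB1 lines, OF for open field), with 1 point per mouse, WT in grey and KO in colour, a black dash at the group mean and a bar of 1 SD on either side. The points of neighbouring groups overlap for every gene, and the highest group mean is at most 1.21 times the lowest.

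Among the myelin genes, the order of the groups placed GABA-CB1-KO mice at or near the top. For Mbp the means in CPM (± SD) were, from the highest, 1998 ± 222 in GABA-CB1-KO basal, 1959 ± 255 in GABA-CB1-KO open field, 1948 ± 306 in GABA-CB1-WT open field, 1866 ± 114 in Glu-CB1-WT open field, 1855 ± 229.9 in GABA-CB1-WT basal, 1838 ± 170.5 in Glu-CB1-KO basal, 1727 ± 98.5 in Glu-CB1-KO open field, 1716 ± 226 in Glu-CB1-WT basal. Of its 7 gaps between neighbouring groups, 6 were smaller than the smaller SD of the pair, the exception lying between Glu-CB1-KO basal and Glu-CB1-KO open field, and all 7 pairs of neighbours overlapped. For Cnp they were 269 ± 29.6 in GABA-CB1-KO basal, 252 ± 35.6 in GABA-CB1-WT open field, 248 ± 29.7 in GABA-CB1-KO open field, 245 ± 22.8 in Glu-CB1-KO basal, 245 ± 14.3 in Glu-CB1-WT open field, 244 ± 31.6 in GABA-CB1-WT basal, 242 ± 21.7 in Glu-CB1-WT basal, 225 ± 10.4 in Glu-CB1-KO open field. Here the gap below Glu-CB1-WT basal was the single gap of 7 larger than the smaller SD, again with overlapping libraries. For Mag the means were 137 ± 20.7 in GABA-CB1-KO basal, 131 ± 15.9 in GABA-CB1-KO open field, 126 ± 16.8 in Glu-CB1-KO basal, 126 ± 22.2 in GABA-CB1-WT open field, 124 ± 15.2 in GABA-CB1-WT basal, 119 ± 9.51 in Glu-CB1-WT open field, 115 ± 9.57 in Glu-CB1-WT basal, 113 ± 8.33 in Glu-CB1-KO open field, and no gap between neighbours exceeded their spread. For Mog they were 55.5 ± 10.4 in GABA-CB1-KO basal, 53.4 ± 6.34 in GABA-CB1-KO open field, 53.2 ± 9.59 in GABA-CB1-WT open field, 50.6 ± 5.13 in Glu-CB1-WT open field, 50.2 ± 4.58 in Glu-CB1-KO basal, 48.8 ± 6.63 in GABA-CB1-WT basal, 48.4 ± 6.70 in Glu-CB1-WT basal, 46.9 ± 3.10 in Glu-CB1-KO open field. Mobp gave 197 ± 30.3 in GABA-CB1-KO open field, 196 ± 34.5 in GABA-CB1-WT open field, 193 ± 28.3 in GABA-CB1-KO basal, 189.6 ± 21.8 in Glu-CB1-WT open field, 176 ± 17.3 in Glu-CB1-KO open field, 171 ± 24.1 in GABA-CB1-WT basal, 169.9 ± 29.3 in Glu-CB1-WT basal, 169 ± 21.1 in Glu-CB1-KO basal. For Mog and Mobp too, all 7 gaps lay within the spread of the neighbours. GABA-CB1-KO basal was highest for Mbp, Cnp, Mag and Mog and GABA-CB1-KO open field for Mobp, and the lowest group was a Glu-CB1 group for all 5.

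The lineage factors and precursor markers were flatter still. For Olig1 the group means in CPM (± SD) were 57.4 ± 3.69 in Glu-CB1-KO basal, 56.7 ± 6.41 in GABA-CB1-KO open field, 56.3 ± 1.49 in GABA-CB1-WT basal, 55.4 ± 1.99 in GABA-CB1-KO basal, 55.2 ± 3.36 in Glu-CB1-WT basal, 53.5 ± 2.93 in Glu-CB1-KO open field, 52.9 ± 5.41 in GABA-CB1-WT open field, 51.4 ± 3.09 in Glu-CB1-WT open field. For Olig2 they were 18.1 ± 1.20 in GABA-CB1-WT basal, 18 ± 2.10 in GABA-CB1-KO open field, 17.7 ± 1.77 in Glu-CB1-KO basal, 17.6 ± 1.72 in GABA-CB1-WT open field, 17.5 ± 1.70 in GABA-CB1-KO basal, 17.2 ± 1.77 in Glu-CB1-WT basal, 16.3 ± 2.50 in Glu-CB1-KO open field, 16.2 ± 1.08 in Glu-CB1-WT open field. Glu-CB1-WT open field was lowest for both factors, and no gap between neighbouring groups exceeded their SD. For Pdgfra the means were 70.5 ± 2.63 in GABA-CB1-WT open field, 70.4 ± 2.21 in GABA-CB1-KO basal, 70.4 ± 6.04 in Glu-CB1-KO basal, 70.4 ± 3.85 in GABA-CB1-WT basal, 69.3 ± 3.71 in GABA-CB1-KO open field, 69.3 ± 4.17 in Glu-CB1-WT basal, 68.7 ± 4.07 in Glu-CB1-KO open field, 64.1 ± 4.07 in Glu-CB1-WT open field, and the gap between the lowest group, Glu-CB1-WT open field, and its neighbour was larger than either SD, although their libraries overlapped. Cspg4 gave 23.7 ± 1.92 in GABA-CB1-WT basal, 23.3 ± 2.24 in GABA-CB1-KO open field, 23.2 ± 2.16 in Glu-CB1-KO basal, 22.7 ± 1.31 in GABA-CB1-KO basal, 22.5 ± 1.67 in Glu-CB1-WT basal, 21.8 ± 2.67 in GABA-CB1-WT open field, 21.7 ± 2.02 in Glu-CB1-KO open field, 20.8 ± 1.41 in Glu-CB1-WT open field, with every gap within the spread. The same group, Glu-CB1-WT open field, was therefore lowest for all 4 genes, though none of the comparisons tested it against all the other groups.

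The first question was whether loss of CB1 from glutamatergic or GABAergic neurons moved these genes in mice that had stayed in the home cage. In Glu-CB1-KO against Glu-CB1-WT at basal, the quasi-likelihood test of edgeR, with p-values adjusted over all genes by the Benjamini-Hochberg method, called 0 of the 9 genes, at an adjusted p under 0.05, where 0.0198% of all 15138 genes tested were called. At an unadjusted p under 0.05 there were 0 of 9 as well, against 3.57% of all genes. DESeq2 also called 0, against 12 of 14257 genes. The log2 differences (KO minus WT) ran from -0.0042 for Mobp to 0.13 (SE 0.083, edgeR adjusted p = 0.999) for Mag. Mag stood at 107, 109, 113, 116 and 131 CPM in the 5 WT mice and at 102 to 152 CPM (median 124) in the 7 KO mice, so the WT values lay inside the range of the KO values. Without Glu-CB1-KO basal replicate 6, the library of this comparison richest in choroid plexus markers, the difference of Mag was 0.076. The 95% intervals of the 9 differences reached at most from -0.23 to 0.30.

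In GABA-CB1-KO against GABA-CB1-WT at basal, 0 of the 9 genes were called either, against 0.245% of 15082 genes. There were 0 of 9 at an unadjusted p under 0.05, against 8.16% of all genes. DESeq2 called 0 of the 9, against 110 of 14771 genes. All 5 myelin genes were higher in the KO means, with a median log2 difference of 0.14 against -0.00054 over all genes. The largest was Mog, at 37.8 to 57.3 CPM (median 48.9) in WT and 45.3 to 73.2 CPM (median 54.4) in KO, a difference of 0.18 (SE 0.12, edgeR adjusted p = 0.715). Mobp followed with 137 to 208 CPM (median 167) in WT and 153 to 235 CPM (median 192) in KO, a difference of 0.18 (SE 0.10, edgeR adjusted p = 0.691). For both genes the lowest of the 12 mice was a WT and the highest a KO, and the ranges overlapped. The interval for Mog, -0.063 to 0.43, was the widest of this comparison. Olig1, Olig2 and Cspg4 differed by -0.025, -0.051 and -0.061, and the interval for Pdgfra was -0.077 to 0.077. Among the 28 further myelin genes 27 were higher and 0 called, with a median of 0.096. Over the 48 mice the mean of these 28 genes varied with that of the 5 (r = 0.93), so they do not count as separate observations. The 16 early lineage genes split into 12 higher and 4 lower with 0 called. The 6 choroid plexus markers all had lower means in KO, with a median log2 difference of -1.44 and 0 called, and without the 3 libraries highest in them the values of Mog and Mobp were 0.19 and 0.20. The size of the myelin values depended on the animals. Animal numbers fell into 3 runs, and the middle run held 3 KO and 0 WT mice of this comparison. With the run as a covariate the differences of Mog, Mobp, Cnp, Mag and Mbp were 0.042, 0.058, 0.050, 0.048 and 0.045. Without GABA-CB1-KO basal replicate 5, the highest mouse for Mog, they were 0.087, 0.11, 0.078, 0.081 and 0.062, and without GABA-CB1-WT basal replicate 1 those of Mog, Cnp, Mag and Mbp were 0.12, 0.079, 0.094 and 0.056. Of the 6 CA3 and CA2 markers 2 were higher and 4 lower (median -0.066), and 1 of them was called, Bok with a log2 difference of -0.52 (SE 0.066, edgeR adjusted p = 0.00328), a call lost with the run of animal numbers as a covariate and with the replicate block.

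After the open field, Glu-CB1-KO mice had lower means than Glu-CB1-WT mice for all 5 myelin genes, none of them past the adjusted threshold. The test called 0 of the 9 genes, against 0.272% of 15078, while 2 of 9 had an unadjusted p under 0.05 and 6.97% of all genes did. DESeq2 called 0, against 123 of 15077 genes. Cnp stood at 225, 236, 252, 254 and 259 CPM in the 5 WT mice and at 205 to 235 CPM (median 230.2) in the 7 KO mice, a difference of -0.12 (SE 0.043, edgeR unadjusted p = 0.0104, adjusted p = 0.425). Mbp stood at 1741, 1817, 1831, 1901 and 2043 CPM in WT and 1577 to 1836 CPM (median 1723) in KO, a difference of -0.11 (SE 0.047, edgeR unadjusted p = 0.0305, adjusted p = 0.621). For Cnp 1 of the 5 WT mice lay within the range of the KO mice and 4 above it, and for Mbp 3 lay within it and 2 above. Mog, Mobp and Mag differed by -0.11, -0.11 and -0.078. Without Glu-CB1-WT open field replicate 3 these were -0.072, -0.054 and -0.050, and for Mag they were -0.048 and -0.050 without WT replicate 4 or KO replicate 2. With the run of animal numbers as a covariate Mog and Mag were -0.069 and -0.046. The other 4 genes had higher means in KO, with Pdgfra at 58.7, 61.2, 65.3, 66.6 and 68.7 CPM in WT and 63.4 to 74.5 CPM (median 68.3) in KO, a difference of 0.099 (SE 0.050, edgeR unadjusted p = 0.066, adjusted p = 0.768). Of the 28 further myelin genes 26 were lower and 0 called (median -0.070, against -0.0025 over all genes), and of the 16 early lineage genes 9 were lower and 0 called. The 28 genes vary with the 5 over mice (r = 0.93) and are not separate observations here either. Among region markers, all 6 of CA3 and CA2 had lower means in KO (median -0.19), with Iyd called at -0.56 (SE 0.11, edgeR adjusted p = 0.0463), while the 7 thalamus markers split into 3 higher and 4 lower (median -0.045), with Prkcd called at -0.58 (SE 0.074, edgeR adjusted p = 0.00309). All 6 dentate (median -0.056), 6 neuron (-0.050) and 6 microglia markers (-0.058) were lower too. The CA1 markers were 3 higher and 1 lower (0.11). None of these 4 lists held a call. In GABA-CB1 mice after the open field all 6 CA3 and CA2 markers were higher in KO (median 0.15, 0 called). The calls of Iyd and Prkcd were lost with the replicate number as a block, at edgeR adjusted p = 0.301 and 0.161. Over the 19 alternatives of this comparison Iyd was called in 7 and Prkcd in 18. The part of these regions and cell types in the values of the myelin genes was not tested.

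The same contrast in the GABA-CB1 line gave differences close to 0. No gene of the 9 was called by edgeR, against 0.0199% of 15097 genes. At an unadjusted p under 0.05 there were 0 of 9, against 13.2% of all genes. DESeq2 called 0 of 9, against 152 of 9530 genes. The median log2 difference of the 5 myelin genes was 0.0049, with Mobp at 134 to 235 CPM (median 205) in the 7 WT mice and 166, 183, 183, 207 and 244 CPM in the 5 KO mice. The interval for Mobp, -0.26 to 0.26, still holds differences as large as those seen in the other comparisons, and without the choroid plexus-rich library the value of Mobp was -0.090. Olig1 and Cspg4 had the largest values, 0.099 (SE 0.078, edgeR adjusted p = 0.591) and 0.095 (SE 0.085, edgeR adjusted p = 0.635). They were 0.049 for Olig1 without GABA-CB1-KO open field replicate 1 and 0.044 for Cspg4 without replicate 4 of that group, the choroid plexus-rich library. In none of the 4 KO comparisons did the KO and WT libraries of any of the 9 genes separate without overlap. Of all genes tested, 0.198% (Glu-CB1 basal), 0.743% (Glu-CB1 open field), 0.709% (GABA-CB1 basal) and 0.987% (GABA-CB1 open field) separated. With shares this low, 0 of 9 does not set these genes apart from the rest.

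**Figure D3:**
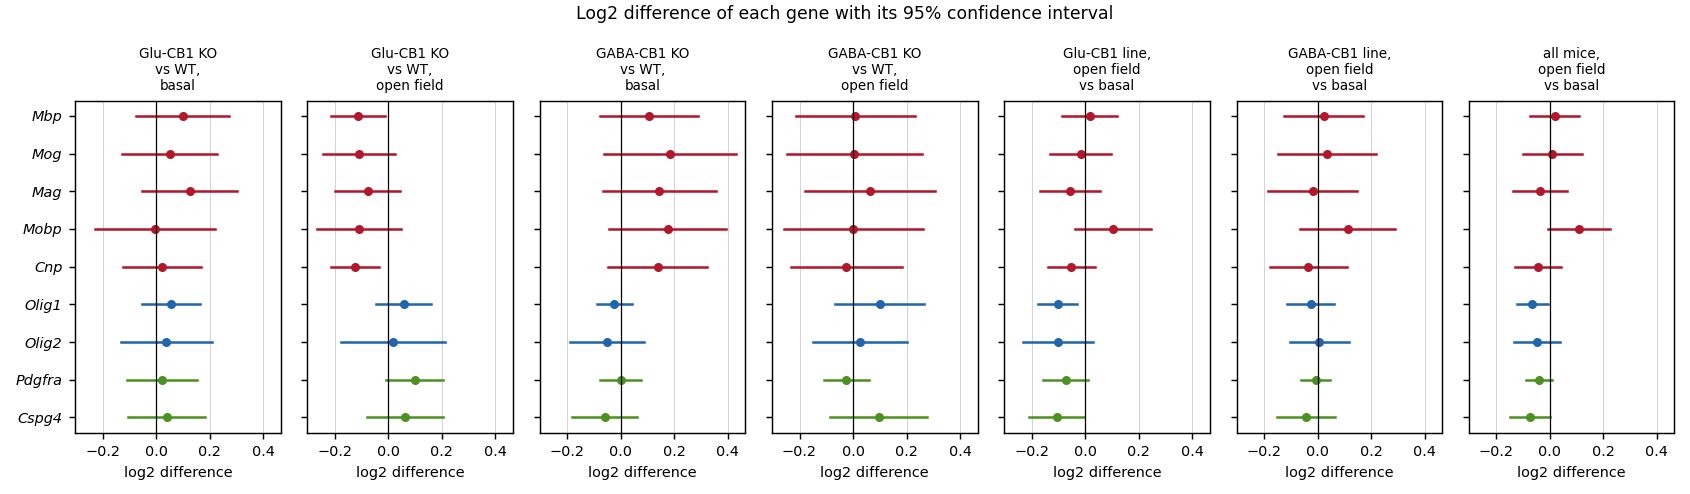
Log2 difference (point) with its 95% confidence interval (line) for each gene in the 4 KO comparisons and in open field against basal within each line and over all mice, with red for myelin genes, blue for Olig1 and Olig2 and green for precursor markers. Differences lie between -0.12 and 0.18, all 5 myelin genes lie above 0 in GABA-CB1 at basal and below 0 in Glu-CB1 after the open field, and no gene passed the adjusted threshold.

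The open field was the second question. In the Glu-CB1 line, 0 of the 9 genes were called between open field and basal by edgeR, against 1.3% of 15355 genes. DESeq2 called 0, against 358 of 14759 genes. Of all genes 12.8% had an edgeR unadjusted p under 0.05, and 2 of the 9 did. Those genes were Olig1, with a log2 difference of -0.10 (SE 0.035, edgeR unadjusted p = 0.00724, adjusted p = 0.163), and Cspg4, with -0.11 (SE 0.050, edgeR unadjusted p = 0.0409, adjusted p = 0.359). Olig1 stood at 51.1, 52.6, 56.3, 56.8 and 59.4 CPM in WT at basal and 47.1, 49.6, 52.0, 53.2 and 55.0 CPM in WT after the open field. In the KO mice of the line it stood at 51.5 to 61.5 CPM (median 58.8) at basal and 48.9 to 57.1 CPM (median 53.5) after the open field. The 2 states overlapped in both genotypes, with the lowest WT mouse and the lowest KO mouse each in the open field group. In the GABA-CB1 line 0 of 9 were called by edgeR against 1.03% of 15374. There were 0 at an unadjusted p under 0.05, against 12.8% of all genes. DESeq2 called 0, against 293 of 13562 genes, and Olig1 differed by -0.026 (SE 0.043, edgeR adjusted p = 0.87).

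With all 48 mice together, where 8.63% of 15570 genes were called between open field and basal, again 0 of the 9 genes were. Here 2 of 9 had an unadjusted p under 0.05, against 21.5% of all genes, and DESeq2 called 0, against 1467 of 15253 genes. Olig1 differed by -0.066 (SE 0.029, edgeR unadjusted p = 0.0272, adjusted p = 0.162) and Cspg4 by -0.075 (SE 0.037, edgeR unadjusted p = 0.048, adjusted p = 0.227). Mobp went the other way, from group means averaging 176 CPM at basal to 189.5 CPM after the open field, a difference of 0.11 (SE 0.058, edgeR unadjusted p = 0.0666, adjusted p = 0.275). The remaining myelin genes stayed between -0.044 for Cnp and 0.018 for Mbp, and Pdgfra stood at -0.042. The intervals of this comparison were narrower than those of the other 11, that of Pdgfra running from -0.091 to 0.0075.

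A few other genes of the lineage did pass the test over all mice, each lower after the open field. Opalin, a membrane protein of mature oligodendrocytes, had means of 18.4 CPM at basal and 15.5 CPM after the open field, a log2 difference of -0.25 (SE 0.068, edgeR adjusted p = 0.0153). Tmem125 fell from 4.86 to 4.33 CPM, a difference of -0.17 (SE 0.054, edgeR adjusted p = 0.0401). Nkx2-2, a homeodomain factor of precursors and newly formed oligodendrocytes, fell from 2.39 to 2.00 CPM, a difference of -0.25 (SE 0.065, edgeR adjusted p = 0.0106). These were 2 of the 28 further myelin genes and 1 of the 16 early lineage genes, in both lists a smaller share than the 8.63% of all genes. Without the 3 libraries richest in choroid plexus markers the calls of Opalin and Tmem125 were lost, at edgeR adjusted p = 0.0633 and 0.053. Over all mice, 22 of the 28 further myelin genes were lower (median -0.038, with 6 of 28 at an unadjusted p under 0.05) and 9 of the 16 early lineage genes (median -0.012, 3 of 16). Of the abundant genes of the myelin list, Plekhb1, Mal and Trf had log2 differences of -0.0089, 0.044 and -0.0024 and were not called. Of the markers of other cell types, Pdgfrb of pericytes fell by 0.12 on the log2 scale, and Tmem119 of microglia and Cdh24 of the CA3 and CA2 list rose by 0.12 and 0.17 (edgeR adjusted p = 0.0229, 0.0413 and 0.043), and the calls of Tmem119 and Cdh24 were lost without those 3 libraries. The lists of these genes were 1 higher and 7 lower (pericytes and smooth muscle), 2 higher and 4 lower (microglia) and 3 higher and 3 lower (CA3 and CA2). The part of these cell types in the values of the 9 genes was not tested.

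The contrasts between contrasts were also empty for these genes. Whether the KO effect changed with the state was tested within each line, and edgeR called 0 of the 9 genes in either, where 0% of all genes were called for Glu-CB1 mice and 0% for GABA-CB1 mice. DESeq2 called 0 of the 9 in both lines, against 0 of 15355 genes for Glu-CB1 mice and 63 of 8512 for GABA-CB1 mice. At an unadjusted p under 0.05 there were 0 of 9 for GABA-CB1 mice, against 14.6% of all genes. For Glu-CB1 mice there was 1 gene of 9, against 2.47%. That gene was Mbp, whose KO effect after the open field minus that at basal was -0.21 (SE 0.099, edgeR unadjusted p = 0.0442, adjusted p = 1.00) on the log2 scale. All 5 myelin genes had negative values in both lines, from -0.10 (Mobp) to -0.21 (Mbp) for Glu-CB1 and from -0.081 (Mag) to -0.18 (Mog) for GABA-CB1. With the run of animal numbers as a covariate the GABA-CB1 values of Mog, Mobp and Cnp were -0.044, -0.059 and -0.076. Those of Mag and Mbp were 0.028 and 0.0018, both with the opposite sign. The Glu-CB1 value of Mobp was -0.026 without Glu-CB1-WT basal replicate 2. Since these 5 genes vary together over mice, as described next, they do not count as 5 separate observations.

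The KO effect of the GABA-CB1 line was also set against that of the Glu-CB1 line. At basal 0 of 9 genes were called by edgeR against 0.279% of 15390, and after the open field 0 of 9 against 0.568% of 15325. In both states there were 0 at an unadjusted p under 0.05, against 8.56% of all genes at basal and 10.8% after the open field. DESeq2 called 0 in both, against 79 of 15377 genes at basal and 200 of 15001 after the open field. The largest value at basal was Mobp with 0.18 (SE 0.16, edgeR adjusted p = 0.796), and after the open field it was Mag with 0.14 (SE 0.14, edgeR adjusted p = 0.767). The WT mice of the lines differed in 0 of 9 genes, as in 0% of 15570 genes, and DESeq2 called 0, against 0 of 15555 genes. At an unadjusted p under 0.05 there was 1 of 9, against 3.67% of all genes. This was Pdgfra, higher in the GABA-CB1 line by 0.080 (SE 0.035, edgeR unadjusted p = 0.0282, adjusted p = 0.9998). Line and cohort cannot be told apart in that comparison.

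No group difference of these genes passed the test, but mice of the same group differed by far more than counting error. After the 8 group means were removed, the SD of log2 CPM was 0.209 for Mobp, 0.198 for Mog, 0.184 for Mag, 0.164 for Mbp and 0.153 for Cnp. It was 0.151 for Olig2, 0.130 for Cspg4, 0.101 for Olig1 and 0.0858 for Pdgfra, and the median over 15570 genes was 0.118. Counting error alone would give 0.00604 for Mbp at its mean of 57106 counts and 0.0626 for Olig2 at 530 counts, so for each of the 9 genes most of the spread lay above the counting error. This holds for counting error only, because the reads carry no molecular identifiers.

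The 5 myelin genes moved as a block. All 10 pairs among them were correlated over the 48 mice, with Pearson's r of the deviations from the group means between 0.78 (Mag and Mobp) and 0.91 (Mog and Mobp). For Mog and Mobp, Spearman's rho was 0.91, the deviations had the same sign in 43 of 48 mice, and r was 0.88 without the 2 mice farthest from the median of Mog. For Mag and Mobp, rho was 0.73, the sign was shared by 35 mice, and r was 0.73 without the 2 extreme mice. Each of the 10 pairs had a permutation p of 1e-05 for r and for rho, the smallest that 100000 two-sided resamples within groups can give, and an adjusted p of 3.27e-05 over the 36 pairs tested. Within the Glu-CB1 line alone the 10 values of r ran from 0.57 to 0.88 and within the GABA-CB1 line from 0.87 to 0.95, and with the runs of animal numbers removed as well they ran from 0.78 to 0.92. In 16 of 48 mice all 5 genes lay below their group mean and in 15 all 5 lay above it. By the mean log2 deviation of the 5 genes from their group means, the lowest mouse was GABA-CB1-WT open field replicate 5 (-0.447). It had Mbp at 1545 CPM, Mog at 35.4 CPM and Mobp at 134 CPM. The highest by this measure was GABA-CB1-KO basal replicate 5 (0.296), with 2297, 73.2 and 235 CPM.

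**Figure D4:**
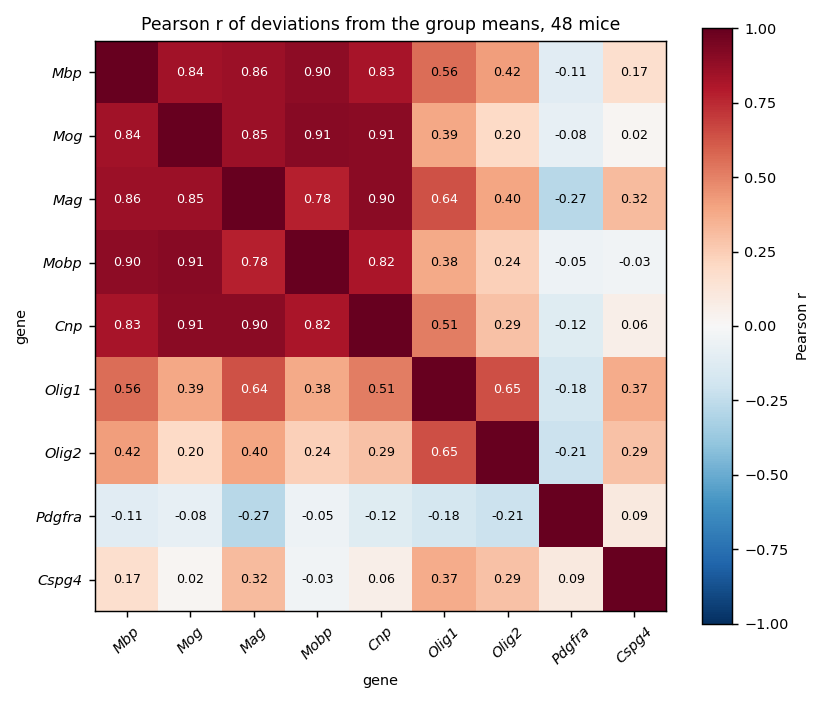
Pearson's r between the deviations of log2 CPM from the group means over 48 mice for each pair of the 9 genes, in a colour scale from -1 to 1 with the value printed in each cell. The block of the 5 myelin genes lies between 0.78 and 0.91, Olig1 and Olig2 share 0.65, and the rows of Pdgfra and Cspg4 lie between -0.27 and 0.37.

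Olig1 and Olig2 were correlated with each other (r = 0.65, rho = 0.66, permutation p = 1e-05, adjusted p = 3.27e-05, same sign in 37 of 48 mice, r = 0.53 without the 2 extreme mice). With the myelin genes they were correlated more loosely, and 7 of their 10 pairs passed. The closest was Olig1 with Mag (r = 0.64, rho = 0.64, permutation p = 2e-05, adjusted p = 6e-05, same sign in 37 of 48 mice, r = 0.62 without the 2 extreme mice). Olig1 passed with each of the 5 myelin genes, at r from 0.38 to 0.64, and Olig2 passed with Mbp and Mag at 0.42 and 0.40 but not with Mog, Mobp and Cnp at 0.20, 0.24 and 0.29. Within lines these looser relations often fell short of the threshold, since 1 of the 10 pairs passed in the 24 mice of the Glu-CB1 line and 3 in those of the GABA-CB1 line, although all 10 values of r were positive in both.

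The precursor markers stood outside the block. None of the 10 pairs of Pdgfra or Cspg4 with a myelin gene passed for r, and neither did any of their 4 pairs with Olig1 and Olig2. For Pdgfra with Mbp, r was -0.11 (rho = -0.083, permutation p = 0.456, adjusted p = 0.547), and its values with the 5 myelin genes ran from -0.27 (Mag) to -0.048 (Mobp). Cspg4 came closest with Olig1 (r = 0.37, rho = 0.40, permutation p = 0.0304, adjusted p = 0.0576) and with Mag (r = 0.32, rho = 0.39, permutation p = 0.0561, adjusted p = 0.0962). For both of these pairs the permutation test of rho did pass, at an adjusted p of 0.0284 for Mag and 0.0284 for Olig1. Pdgfra and Cspg4 were not detectably correlated with each other (r = 0.094, rho = 0.085, permutation p = 0.556, adjusted p = 0.639).

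**Figure D5:**
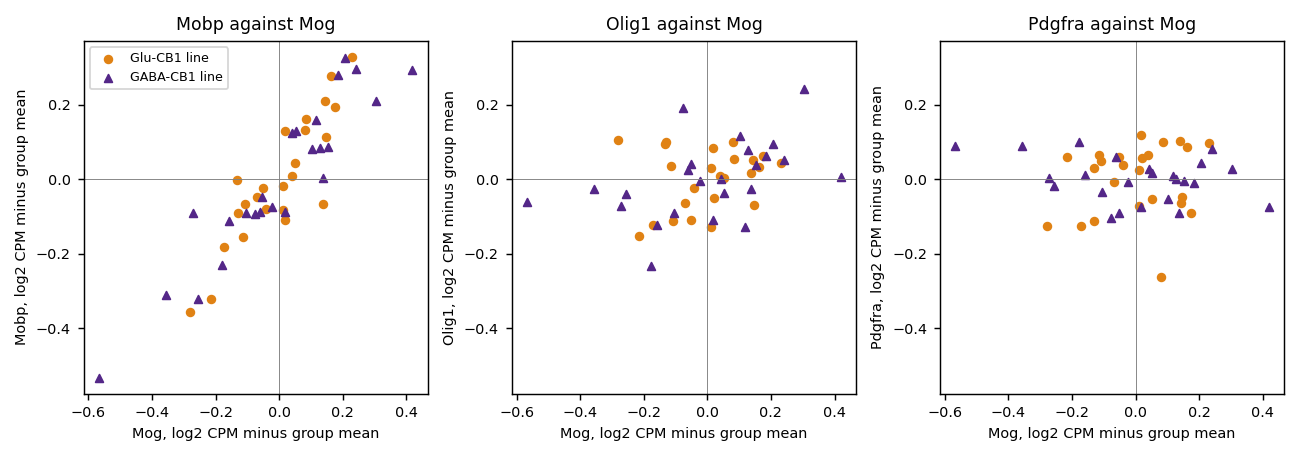
Deviation of log2 CPM from the group mean of Mobp, Olig1 and Pdgfra (vertical axes) against that of Mog (horizontal axis), with 1 point per mouse, circles for the Glu-CB1 line and triangles for the GABA-CB1 line. Mobp follows Mog over 48 mice (r = 0.91), Olig1 less closely (r = 0.39), and Pdgfra shows no trend (r = -0.078).

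The genes whose pattern over the mice was most like that of the myelin genes, among 15561 other genes, were other genes of the same lineage. By Pearson's r with the mean deviation of the 5 myelin genes they included Cldn11 (0.95), Mal (0.93), Bcas1 (0.89) and Trf (0.88). Cldn11 and Mal encode membrane proteins of myelin, Bcas1 a protein of myelinating cells, and Trf, transferrin, the iron carrier that oligodendrocytes make. The median r was 0.71 over the 28 further myelin genes and 0.17 over the 16 early lineage genes, against -0.011 over all genes. These values are over 48 mice and share the libraries, so they are descriptions.

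Neighbours of the other genes were not of the lineage lists. Those of the mean of Olig1 and Olig2 were Gna12 (0.71), Mapk8ip1 (0.68), Tmbim6 (0.64), Clec3b (0.64) and Ckb (0.64). Pdgfra was most like Greb1l (0.69), Etl4 (0.66), Hs6st2 (0.66), Arnt2 (0.65) and Gng4 (0.65). Cspg4 was most like Ipo4 (0.79), Shank1 (0.79), Arhgap33 (0.77), Tnrc18 (0.76) and Adam15 (0.76). None of these 15 genes is on any of the marker lists. The median r of the 16 early lineage genes was 0.0019 with Pdgfra, 0.091 with Cspg4 and 0.16 with the mean of Olig1 and Olig2. For the 28 further myelin genes the median r was -0.18 with Pdgfra, 0.081 with Cspg4 and 0.42 with that mean.

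Marker lists of other cells were compared with the same deviations, as r over 48 mice. The mean of the 5 myelin genes gave -0.19 with neurons, 0.0042 with astrocytes, 0.12 with microglia, 0.094 with endothelial cells, 0.16 with thalamus and 0.33 with choroid plexus. With CA1, CA3 and CA2, and dentate markers it gave -0.023, 0.29 and -0.048, and with the total count of the library 0.29. Cspg4 gave 0.44 with the pericyte and smooth muscle list and 0.13 with the early lineage list. Pdgfra gave -0.0015 with the fibroblast list, -0.0023 with the early lineage list and -0.54 with the CA3 and CA2 list. The part of dissection, depth or other cell types in the levels of the 9 genes was not tested.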

How the data were processed

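Hippocampal Cornus Ammonis RNA of 48 mice was amplified (NuGEN Ovation RNA-seq System v2) and sequenced as single reads by the authors, 1 library per mouse. The values deposited by the authors are raw counts of reads per gene: reads were trimmed with bbduk, aligned to mm10 with STAR 2.6.0a and counted on exons by strand with featureCounts 1.6.2 (versions from the submitters' processing notes). Alignment and counting were not repeated.

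Groups were taken from the sample labels. KO and WT libraries of a line and state (12 libraries), the open field and interaction contrasts (24 libraries of a line or state) and contrasts over 48 libraries were tested with edgeR 4.0.16 (quasi-likelihood F test, TMM, filterByExpr, R 4.3.3), with Benjamini-Hochberg adjustment over all genes tested and a threshold of 0.05. DESeq2 1.42.0, the tool of the study, was an alternative. Standard errors were derived from the F statistic. CPM were normalised by TMM over 48 libraries. Deviations for correlations are log2 CPM (prior count 2) minus the group mean. Permutations (100000, two-sided) exchanged mice within groups, with adjustment over 36 pairs. Neighbouring groups were compared with the smaller SD of the pair. The fitting scripts were tested on simulated data. Promoters came from RefSeq (GRCm38.p6), with an entry for 7 of the 8 genes looked up. Protein sequences were not used here.

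Counts of the 123 pairs of libraries within groups differed by more than sampling noise (lowest chi-square per degree of freedom 2.85), so none was taken as a duplicate. No sample column was left unused (0). Other genes whose span or exons lie on these genes had few counts: BC002163, which spans Olig1 and Olig2 without sharing exons, had a mean of 1.87 CPM, and Mir7025, on an exon of Pdgfra, had 1 count at most in a library. The 9 genes and the lists were chosen with earlier results of these data known. Genes named beside them are list genes past the threshold, the most abundant list genes and those among the 5 genes of most similar pattern, except for results on some items, which are not reported here. Alternatives were other tools, scalings and filters, animal-number ranges, a replicate block, 48 libraries in a single fit and leaving out each library.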

Additional observations from a re-analysis of the deposited data

Results flagged for a closer look

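In 4 of the 72 combinations of gene and group, the highest or lowest mouse stood apart from the others by more than Dixon's 95% critical value, and chance flags about 1 group in 20. Mobp was 212 CPM in Glu-CB1-KO open field replicate 5, with the next mouse at 180.3 CPM and the lowest at 162 CPM. Cnp was 205 CPM in Glu-CB1-WT basal replicate 2, with the other 4 mice between 244 and 259 CPM. Olig2 was 14.1 CPM in Glu-CB1-WT basal replicate 5, with the others between 17.5 and 18.4 CPM, and 21.3 CPM in Glu-CB1-KO open field replicate 6, with the other 6 at or under 17 CPM and the lowest at 13.7 CPM. All 4 were in the Glu-CB1 line. No difference of the KO effect between states or lines passed the adjusted threshold among the 36 values tested by edgeR.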

How the results depend on the processing

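In the 12 comparisons, for the alternatives that apply to each, the count of the 9 genes called stayed at 0 under the other tool, the other scaling, both other filters, the animal-number covariate, the fit of 48 libraries, the replicate block and the removal of the 3 libraries richest in choroid plexus markers, the last chosen after seeing the data. The covariate and the block apply within a line, so they were run for the 8 comparisons within lines, and the fit of 48 libraries for the 10 that did not already use all of them. The choroid plexus-rich libraries enter 11 comparisons, all but Glu-CB1 KO after the open field. It was also 0 in each of the 96 fits within lines without a single library, so its range there was 0 to 0. The smallest adjusted p of a member was 0.109 in the former and 0.0928 in the latter (edgeR and DESeq2). Without a single library, 89 of 1296 member differences changed sign and 25 of 765 did under the others, none of them called in either fit. Replicate numbers did not pair the mice: of 21 same-numbered pairs only 4 correlated above 0.1 and 4 correlated best with their own number (r from -0.33 to 0.32). With the replicate block 0 members were called, while the calls over all genes changed from 41 to 3 (Glu-CB1 KO, open field), 37 to 8 (GABA-CB1 KO, basal), 3 to 1 (GABA-CB1 KO, open field) and 159 to 34 (GABA-CB1 line, open field). DESeq2 called 12, 123, 110 and 152 genes in the 4 KO comparisons in the order of the report's Glu-CB1 basal, Glu-CB1 open field, GABA-CB1 basal and GABA-CB1 open field, against 3, 41, 37 and 3 by edgeR. It called 358 and 293 against 200 and 159 for the open field in the Glu-CB1 and GABA-CB1 lines, 63 against 0 for the GABA-CB1 interaction, and 79 and 200 against 43 and 87 between lines. The fit of 48 libraries gave 7, 106 and 374 genes (Glu-CB1 KO basal, GABA-CB1 KO open field, Glu-CB1 open field) and 53 for the lines after the open field, the animal-number covariate 7 for GABA-CB1 KO at basal, and removal of the choroid plexus-rich libraries 131 (Glu-CB1 line) and 26 (GABA-CB1 line). The cause of these changes was not tested.

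Among other named genes, the call of Iyd was lost in 10 of the 12 fits without a single library, and that of Bok (GABA-CB1 KO, basal) with the covariate and the block. Tmem125, Tmem119 and Cdh24 were lost without a filter on low counts, where more genes were tested. Of the 36 correlations, 18 passed with either prior count, 18 without the 2 extreme mice, 15 with animal-number ranges removed, 16 without the choroid plexus-rich libraries, and 12 and 14 within the 24 mice of the Glu-CB1 and GABA-CB1 lines. All 10 myelin pairs passed in each. Relations of Olig1 or Olig2 with myelin genes made up the lost ones, and Mag with Cspg4 passed without the 2 extreme mice (r = 0.38). Amplification from small RNA inputs before sequencing limits what read depth says about precision. With 5 to 7 mice per group, the 95% intervals of the KO differences reached to -0.27 and 0.43 on the log2 scale, in different genes and comparisons. Others were narrower, as for Pdgfra in GABA-CB1 mice at basal (-0.077 to 0.077). A difference inside the interval of its own gene and comparison was not excluded.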
